A study of Mus musculus with 9 samples.

Results

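Interferon-stimulated genes are the genes that a cell switches on when interferon binds its receptors, and 39 of them were followed here in iNKT1 cells from 3 mouse tissues. The 39 genes were taken from a list of symbols and not picked by a cut on measured values, but the list was proposed with earlier results of these data known. All 39 were found among the 14004 genes of the deposited table. Invariant NKT cells recognise lipids on CD1d through a nearly fixed receptor, and the iNKT1 subset carries the transcription factor T-bet (Tbx21) and makes interferon-gamma. The study sequenced total RNA of these cells from the thymus, the liver and the spleen, with 3 libraries per tissue described as independent replicates, so that gene levels could be set side by side between the organ in which iNKT cells develop and the organs in which they reside. Every library came from untreated C57BL/6 mice of the genotype Tbx21CreTg;Rosa26-LSL-YFP+/+, in which Cre driven by Tbx21 regulatory sequence switches on a yellow fluorescent reporter, and all groups therefore share this transgene. No group without it and no interferon-treated group was analysed here, so the values describe unstimulated cells. The age of the animals and whether cells of several animals were pooled are not given in the sources used here, so the spread between libraries may be partly technical.

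Type I interferons (interferon-alpha and interferon-beta) bind the receptor made of Ifnar1 and Ifnar2, and the kinases Jak1 and Tyk2 then phosphorylate Stat2, among other proteins. With Irf9 it forms part of a complex called ISGF3, which binds a DNA motif called the interferon-stimulated response element (ISRE). Interferon-gamma acts through Ifngr1 and Ifngr2 and on another motif, the gamma-activated site (GAS), and many of the genes below answer to both kinds of interferon. Low amounts of interferon are also made without infection, in the thymus among other organs, and keep many of these genes at a basal level.

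Promoter sequences are shown for 6 members, because they hold the response element and include both members that were higher in the thymus and members with the opposite order. RefSeq windows on GRCm38.p6, from 250 bases before to 50 bases after each gene's start, were found for 30 of the 39 members by symbol. The ISRE core was searched as GAAANNGAAA on either strand (TTTCNNTTTC on the other), and matches may overlap each other. It was present in the windows of 17 of these 30 members (56.7%), against 1079 of the 27025 genes in the window table (3.99%). Each stretch is written 5′ to 3′ on the gene's strand with the matches in capitals.
Ifit1, chr19:34640755-34640843, plus strand: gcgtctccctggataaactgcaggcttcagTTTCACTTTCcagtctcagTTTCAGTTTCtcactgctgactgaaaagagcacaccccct
Ifit3, chr19:34583343-34583446, plus strand: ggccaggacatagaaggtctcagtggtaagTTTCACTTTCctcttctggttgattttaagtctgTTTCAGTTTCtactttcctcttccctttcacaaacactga
Isg15, chr4:156200845-156200926, minus strand: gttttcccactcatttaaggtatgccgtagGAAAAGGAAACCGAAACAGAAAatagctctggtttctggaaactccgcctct
Apol9a, chr15:77411094-77411169, minus strand: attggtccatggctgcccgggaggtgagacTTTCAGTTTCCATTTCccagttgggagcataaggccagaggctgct
Irgm1, chr11:48871405-48871480, minus strand: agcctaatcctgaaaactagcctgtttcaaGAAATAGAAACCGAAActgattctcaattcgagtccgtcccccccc
Gbp2, chr3:142620574-142620643, plus strand: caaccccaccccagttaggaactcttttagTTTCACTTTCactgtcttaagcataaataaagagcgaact

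The Isg15 stretch held 3 overlapping matches, between 78 and 66 bases before the start. In Ifit1 the 2 matches began 104 and 85 bases before the start, and in Ifit3 they began 156 and 122 bases before it. Apol9a has 2 RefSeq start sites, and its 2 overlapping matches began 105 and 99 bases before one and 59 and 53 bases before the other. The 2 overlapping matches of Irgm1 began 30 and 24 bases before the start, and the single match of Gbp2 began 59 bases before its start. All these starts are those of RefSeq. The gene coordinates printed below come from another annotation, GENCODE, and those of Irgm1 and Gbp2 include the matches. The 13 members without a match in the window were Cmpk2, Dtx3l, Ifi35, Ifi44, Ifi47, Ifit2, Irf7, Irf9, Isg20, Oasl1, Oasl2, Samd9l and Xaf1. The GAS core, searched as TTCNNNGAA, which reads the same on both strands, was present in 7 of the 30 windows (23.3%) against 9.55% of all genes, and these were Bst2, Eif2ak2, Gbp7, Ifi35, Ifit2, Igtp and Isg20. Both shares describe letters in a window of 300 bases and say nothing of binding.

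**Figure D1:**
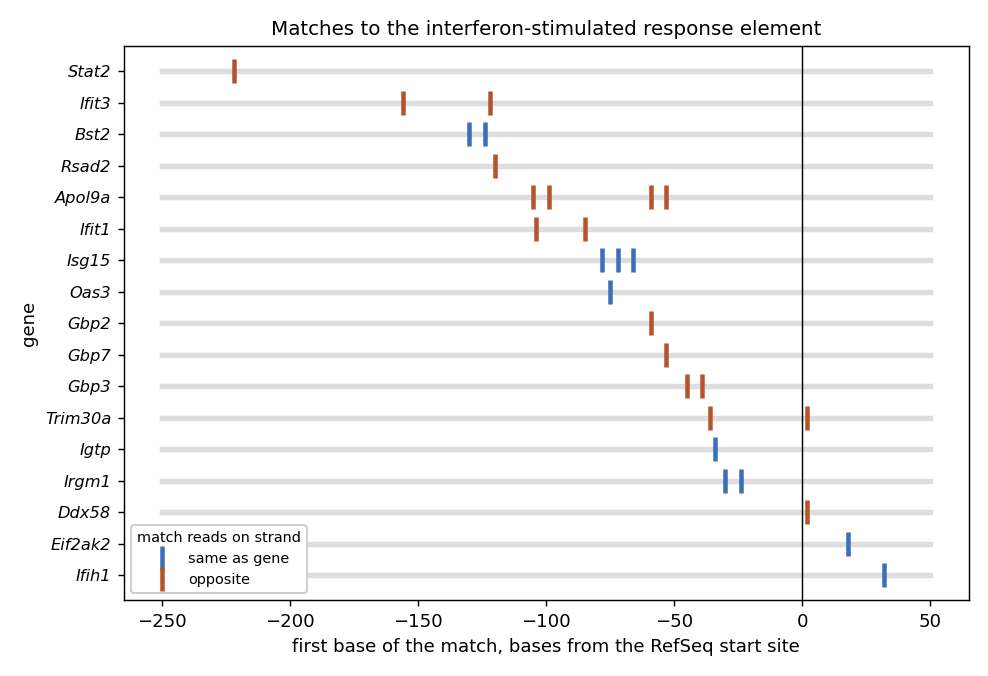
Positions of the ISRE core matches (horizontal axis, bases from the gene's start) in the promoter windows (grey lines) of the 17 members that hold one (rows), coloured by the strand on which GAAANNGAAA reads. Matches of the 6 members whose stretches are printed lie between 156 bases and 24 bases before a start.

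Values below are the authors' normalised read counts, in which every library is brought to a common scale, and are given in the order of replicates 1, 2 and 3 of a tissue. Low values fall on steps of 1 read, which allowed read numbers to be recovered, and recovered totals ran from 18506598 to 39568081 reads in 8 libraries and came to 3877784 in liver replicate 3, where 1 read is worth a value of 6.04. Thymus replicates 1 and 2 had reads on fewer genes (10476 and 11180) than the other libraries (11781 to 13038). All 9 iNKT1 and T cell markers were in the table, and their summed value lay between 100672 and 126441 for thymus libraries, between 134112 and 154198 for liver libraries and between 92833 and 111784 for spleen libraries. The 3 markers of the iNKT2 subset summed to 4062 to 6737 (thymus), 3055 to 5093 (liver) and 5157 to 7756 (spleen). Markers of other cells also differed between libraries. The summed value of 4 B cell markers was at most 0.176 in the thymus, ran from 1.69 to 747 in the liver and from 0.630 to 2122 in the spleen, the highest being spleen replicate 1. Summed over 5 myeloid markers, the thymus range was 10.6 to 315, the liver range 25.6 to 1298 and the spleen range 56.3 to 3040, again highest in spleen replicate 1. The 5 hepatocyte markers summed to values of 1371 to 1641 for the liver, 110 to 868 for the thymus and 0.525 to 40.5 for the spleen. Within this sum Alb was at 1288, 1588 and 1172 in the liver and at 0.02, 268 and 84 in the thymus. Trf went the other way, at 43.5, 7.69 and 19.3 in the liver and 110, 598 and 205 in the thymus. Apoa1, Apoa2 and Ttr were at most 102.1 in any library. Plasmacytoid dendritic cells are strong interferon producers, and 3 of their markers (Tcf4, Irf8 and Spib) summed to between 27.8 and 567 (thymus), 420 and 1337 (liver), and 696 and 1698 (spleen). Irf8 alone was at 567, 25.5 and 62.7 in the thymus, 560, 452 and 406 in the liver and 1145, 669 and 446 in the spleen. Siglech, also listed for these cells, was not in the table. For 4 markers of immature thymocytes the ranges were 0.106 to 783 (thymus), 88.1 to 1157 (liver) and 0 to 26.3 (spleen). The liver sums were mostly Cd8a, at 1116, 146 and 85.8, while Rag1 was at most 0.815 there and Dntt at most 0.631. The highest thymus sum was that of replicate 3, where Rag1 was at 486 and Cd8a at 257. The part of any of these other cell types in the results was not tested. In such bulk samples fewer cells of a type and less RNA per cell cannot be told apart. Xist, the RNA of the silenced X chromosome, had values of 96505, 84543 and 107736 in the 3 libraries numbered 2, 16531 in thymus replicate 3 and at most 125 in the other libraries.

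Averaged over the 39 genes, the level was lower in the spleen than in the thymus and the liver, with overlap between libraries, and the thymus and liver means were close. The mean of log2(value + 1) over the members was 10.23, 9.74 and 10.57 in the thymus libraries (10.18 ± 0.41, SD, n = 3), 9.81, 10.19 and 10.13 in the liver (10.05 ± 0.20) and 8.78, 9.83 and 9.66 in the spleen (9.42 ± 0.56). The thymus and liver ranges overlapped, with a difference of means of -0.14 that was 0.06 without thymus replicate 3, -0.35 without thymus replicate 2 and -0.41 under TMM rescaling, and so did thymus and spleen at -0.76, because spleen replicate 2 lay above thymus replicate 2. Spleen replicate 1 was the lowest of all libraries, and without it the difference from the thymus was -0.44, while under TMM rescaling it was -1.05. Single members weigh on these means. Apol9a had a mean log2 value of 8.13 in the thymus, 0.3 in the liver and 0 in the spleen, and Ifi44 had 0.04, 5.42 and 0.66. Among members with a mean value of at least 100, which leaves out both, the differences from the thymus were -0.08 (liver) and -0.59 (spleen). The means without Apol9a alone were not computed. The same mean over all 13309 genes tested moved the other way, at 7.03 ± 0.42 in the thymus, 7.61 ± 0.27 in the liver and 7.63 ± 0.16 in the spleen. The distance of the members above all genes was therefore 3.53, 2.86 and 3.06 in the thymus, 2.51, 2.38 and 2.41 in the liver and 1.34, 2.13 and 1.91 in the spleen. On that scale every thymus library lay above all libraries of the other tissues. The mean of all genes that is subtracted was lowest in thymus replicates 1 and 2, at 6.70 and 6.89, against 7.31 to 7.81 in the other libraries. These 2 libraries also had reads on the fewest genes (10476 and 11180). How far this reference, and not the members, sets the separation was not tested. No p is given for these means, since the genes were proposed with results of these data known.

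**Figure D2:**
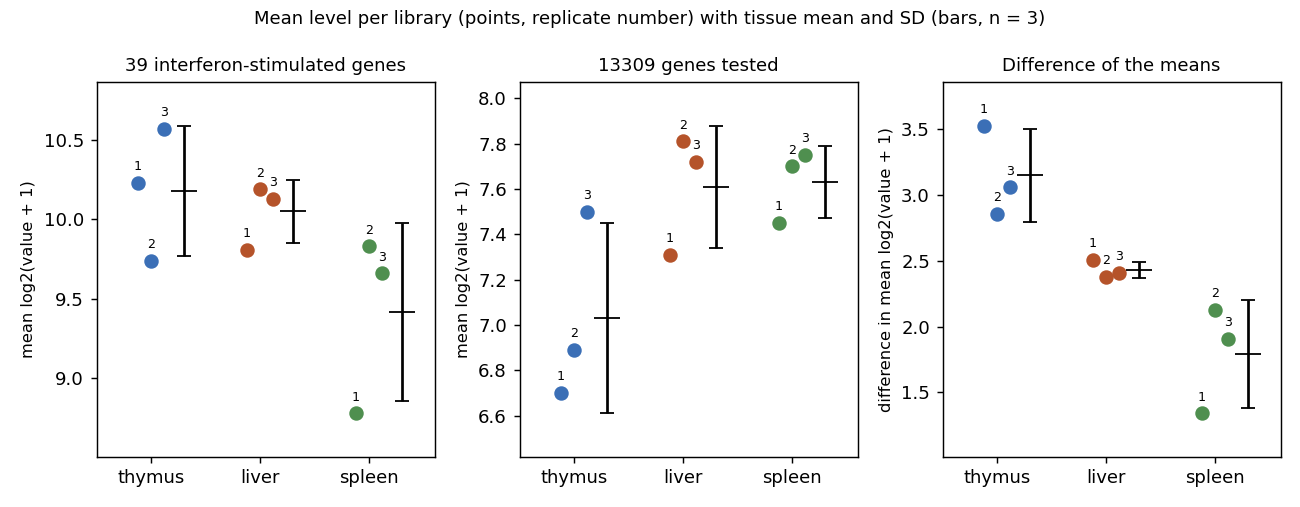
Mean log2(normalised value + 1) over the 39 members in each library (points, vertical axis, log2 scale) by tissue, beside the mean over all genes tested and the difference of both means, with tissue means and SD bars (n = 3). The members' mean was 10.18 in the thymus, 10.05 in the liver and 9.42 in the spleen, while that of all genes was lowest in the thymus.

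Few single members passed the test across all genes. That test was limma-trend on log2(value + 1) over 13309 genes and all 9 libraries, two-sided, with Benjamini-Hochberg adjustment and a threshold of 0.05. In liver against thymus 1 member passed, lower in the liver (Apol9a), where 0.323% of all genes passed. In spleen against thymus 2 members passed, both lower in the spleen (Apol9a and Ifit1), where 0.398% of all genes passed. To be tested, a gene had to reach a value of 1 in 3 or more libraries, and Apol9a did so in the 3 thymus libraries alone. The direction of its calls was thus set by its entry into the test. No member passed in liver against spleen with limma, edgeR or DESeq2, where 0.015% of all genes passed with limma; at an unadjusted p under 0.05 edgeR had 1 member and DESeq2 had 2. With DESeq2 on the recovered reads 4 members passed in liver against thymus and 6 in spleen against thymus, but so did 3.42% and 3.85% of all genes, and 0.165% passed in liver against spleen. With edgeR on these reads 0 members passed in each comparison with the thymus (10 and 8 at an unadjusted p under 0.05), where 0.165% and 0.278% of all genes passed. Under TMM rescaling limma called 1 and 3 members in these comparisons, where 0.331% and 0.669% of all genes passed. At an unadjusted p under 0.05 with limma, 3 members were higher and 8 lower in the liver than in the thymus (11.6% of all genes were past that level), 1 was higher and 9 lower in the spleen than in the thymus (11.7% of all genes) and 3 were higher in the liver than in the spleen (3.03% of all genes).

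Counted by values, 4 members had all 3 liver values above all 3 thymus values and 8 had them below, where 9.61% and 5.73% of all genes did so. In the spleen 3 members lay wholly above the thymus and 11 wholly below it, where the shares of all genes were 9.29% and 6.03%. Apol9a is among the 8 and among the 11, and also among those below under TMM rescaling. Its separation was set by its entry into the test through the thymus values alone. Liver values lay wholly above spleen values for 5 members and wholly below for 2, with 5.97% and 6.77% of all genes as background. The median log2 fold change of the members was 0.05 in liver against thymus, where that of all genes was 0.29, and -0.46 in spleen against thymus, where that of all genes was 0.33. In liver against spleen it was 0.41, with -0.02 for all genes. Rescaling the values with TMM factors, which assume that most genes do not differ, brought the medians of all genes to 0.04, 0.04 and 0.00 and those of the members to -0.23, -0.77 and 0.44. Under it the members wholly apart became 2 above and 10 below in liver against thymus, where the shares of all genes became 7.57% and 9.05%. In spleen against thymus they became 1 above and 15 below, with 6.95% and 9.94% of all genes, and in liver against spleen 4 above and 2 below, with 6.48% and 6.33%. The separations gained by the rescaling were those of Xaf1 and Parp9 in liver against thymus and of Oas3, Dhx58, Ifi27l2a and Trim30a in spleen against thymus, all lower than the thymus. Both comparisons with the thymus share its 3 libraries, so a member that stood apart in each is 1 observation of the thymus, not a pair of observations.

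**Figure D3:**
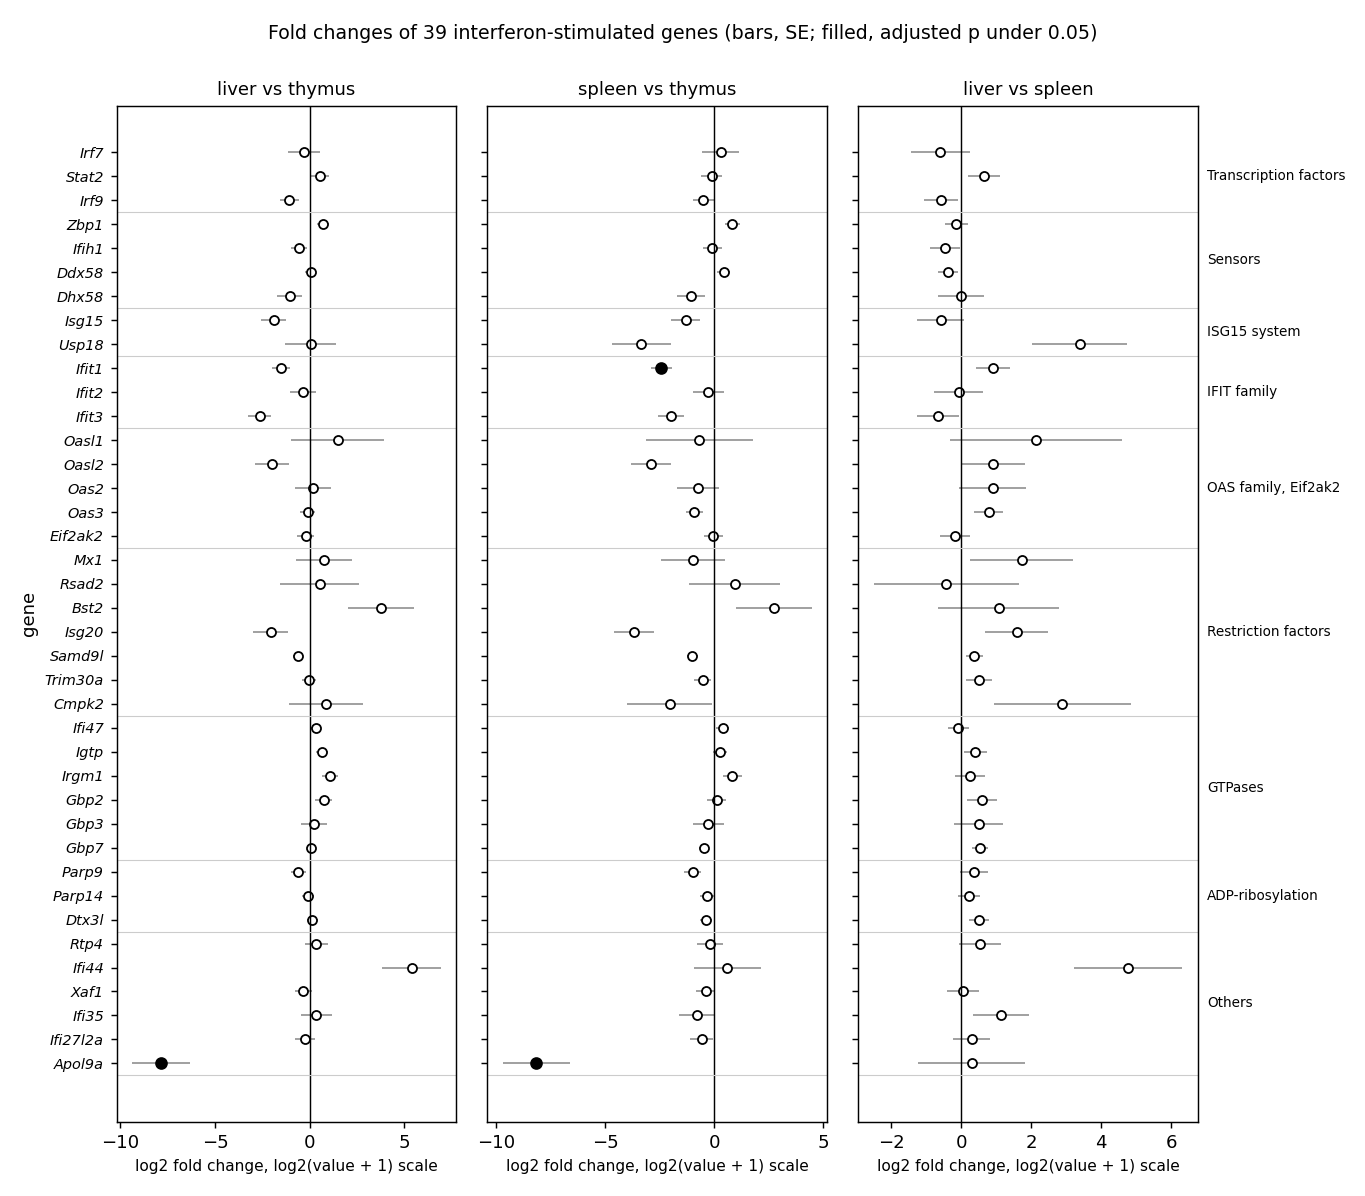
Log2 fold change (log2(value + 1) scale) of each member in the 3 comparisons with its standard error, grouped by role. Members past the threshold are Apol9a in both comparisons with the thymus and Ifit1 in spleen against thymus.

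IFIT proteins bind viral RNA and block its translation, and the genes of the 3 members lie in one cluster on chromosome 19. Ifit1 (chr19:34640871-34650009, GRCm38) had values of 3616, 3151 and 4773 in the thymus, 1066, 1340 and 1666 in the liver and 519, 1324 and 519 in the spleen. Every thymus library lay above all others, and the means were 3847 ± 835 (SD, n = 3), 1357 ± 301 and 787 ± 465. The log2 fold change was -2.42 (SE 0.48, limma adjusted p = 0.043) in spleen against thymus, a ratio of means of 0.205, and -1.50 (SE 0.48, adjusted p = 0.255) in liver against thymus. The spleen call is narrow, since it was lost with any 1 of the 9 libraries left out (adjusted p 0.0529 to 0.212), and edgeR on the recovered reads gave an adjusted p of 0.086 and DESeq2 9.04e-05. In liver against spleen Ifit1 differed by 0.91 (SE 0.48, adjusted p = 1).

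Ifit3 (chr19:34583531-34588731), which stabilises Ifit1, was at 2262, 1782 and 1977 in the thymus, 355, 464 and 195 in the liver and 509.9, 508 and 501 in the spleen. All 3 thymus values were at least 3 times the highest value elsewhere, and the spleen values were nearly equal to each other. The log2 fold change in liver against thymus was -2.65 (SE 0.60, adjusted p = 0.0874), which does not pass. DESeq2 alone, of 21 alternatives, called it. Ifit3b, a near-identical neighbour of Ifit3 outside the list, was at 440.5, 796.5 and 157 in the thymus, 7.8, 84.9 and 25.4 in the liver and 39.5, 151 and 70.1 in the spleen, and reads may be split between these genes, since how reads matching both were counted is not given in the sources used here. Ifit2, which binds AU-rich RNA, showed no such order, at 1513, 464 and 2499 in the thymus, 1830, 1260 and 371 in the liver and 867, 1210 and 952 in the spleen. The mean log2 value over the 3 genes was 11.03 ± 0.54 in the thymus, 9.53 ± 0.50 in the liver and 9.48 ± 0.34 in the spleen.

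Apol9a, an interferon-induced apolipoprotein L family gene on chromosome 15 (chr15:77403789-77411135, minus strand), was detected in the thymus alone. Its thymus values were 178, 279.7 and 439, from 752 reads in all, while all 3 liver and all 3 spleen libraries held 0 reads. Against a floor of 3 reads in each library it was at least 38.5-fold lower in the liver and at least 147-fold lower in the spleen, and these bounds cover counting error only. Without liver replicate 3, where a read is worth most, the bound for the liver was 115-fold. The fitted log2 differences, which depend on the pseudocount, had adjusted p-values of 0.0421 in liver against thymus and 0.0283 in spleen against thymus (limma). Leaving out any 1 liver or spleen library lost both calls (0.0735 to 0.264 in the liver comparison, 0.0508 to 0.16 in the spleen comparison), and without any 1 thymus library the gene no longer passed the filter for low values. It passed that filter through its thymus values alone, so these p-values are no separate support for the order of tissues. edgeR gave adjusted p-values of 0.23 and 0.163, and DESeq2 gave 0.000179 and 8.05e-06. Apol9a has a close paralogue, Apol9b, that was not analysed here, and reads that match both are uncertain.

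Isg15 is a ubiquitin-like protein that is attached to other proteins, and Usp18 removes it and restrains signalling at the receptor. Isg15 (chr4:156199424-156200818) was at 823, 1546 and 1638 in the thymus, 240.1, 274 and 612 in the liver and 356, 526 and 728 in the spleen. Thymus replicate 1 had the lowest thymus value, and it still lay above the highest value of the other tissues, that of spleen replicate 3. The ratio of means was 0.281 in liver against thymus and 0.402 in spleen against thymus, and neither comparison passed (adjusted p = 0.294 and 0.463). Usp18 was at 1193, 339 and 227 in the thymus, 611, 722 and 231 in the liver and 3.68, 217 and 85.7 in the spleen. Its spleen values lay below all thymus and all liver values, with only 3.68 in spleen replicate 1. The log2 fold change in liver against spleen was 3.39 (SE 1.35, adjusted p = 1).

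**Figure D4:**
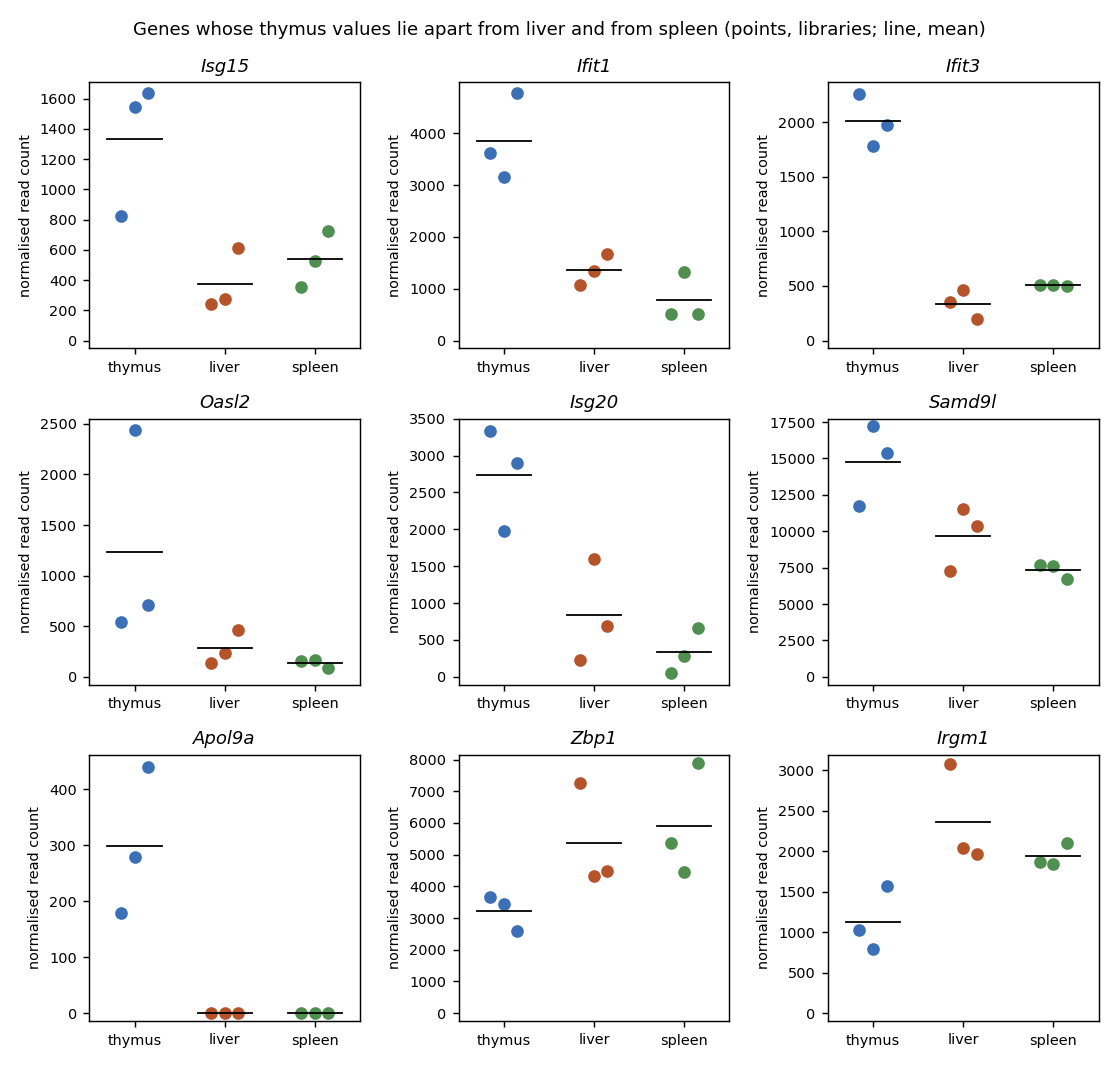
Normalised read count (vertical axis, linear) in each of the 9 libraries by tissue for the 9 members named in the panels, with a line at each tissue's mean (n = 3). In Isg15, Ifit1, Ifit3, Oasl2, Isg20, Samd9l and Apol9a each thymus value lies above all 6 liver and spleen values, and in Zbp1 and Irgm1 below them, for Zbp1 only on the deposited scale. The 9 members were picked for this separation, and the share of all genes that stand apart from both tissues was not counted. Apol9a entered the test through its thymus values alone, which set its separation.

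Among the restriction factors, Isg20 and Samd9l shared this order. Isg20, an exonuclease that degrades viral RNA (chr7:78913424-78920396), was at 3337, 1982 and 2897 in the thymus, 234, 1593 and 685 in the liver and 49.1, 279 and 664 in the spleen. The spleen mean was 0.121 of the thymus mean, with a log2 fold change of -3.67 (SE 0.90, adjusted p = 0.117). Samd9l, a large antiviral and growth-restraining protein (chr6:3372257-3399572), was at 11720, 17211 and 15366 in the thymus, 7240, 11496 and 10357 in the liver and 7667, 7604 and 6693 in the spleen. It is among the higher values of the list and differed less, at -1.0 (SE 0.25, adjusted p = 0.126) in spleen against thymus, a ratio of means of 0.496. Neither passed, and Isg20 did so under 1 of 21 alternatives and Samd9l under 2 of 21.

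Bst2, or tetherin, holds budding virus at the cell surface and stood at 0.0212, 76.4 and 386 in the thymus, 473, 385 and 436 in the liver and 380.2, 212.5 and 106 in the spleen. Its liver values lay wholly above the spleen values, and under TMM rescaling they did not. Thymus replicate 1 held no read of it. Trim30a, which restrains inflammatory signalling, was at 5112, 5842 and 6546 in the thymus, 4242, 6583 and 6643 in the liver and 2166, 6001 and 5036 in the spleen, and the ranges of the 3 tissues overlapped on the deposited scale.

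Mx1, Rsad2 and Cmpk2 ranged widely within the thymus and within the spleen. Mx1, a GTPase against RNA viruses that is disrupted and makes no working protein in C57BL/6 mice, was at 3385, 32.4 and 1222 in the thymus, 394, 929 and 1804 in the liver and 35, 532 and 944 in the spleen. Rsad2, or viperin, which makes a chain-terminating nucleotide, was at 279, 1.19 and 382 in the thymus, 18.2, 531 and 67.8 in the liver and 35.7, 935 and 48.5 in the spleen. Cmpk2, a nucleotide kinase that lies beside Rsad2 on chromosome 12 and is read in the opposite direction, was at 1864, 8.13 and 362 in the thymus, 495, 423 and 170.5 in the liver and 4.42, 764 and 20.3 in the spleen. Thymus replicate 2 and spleen replicate 1 were the lowest of their tissues for all 3 genes. Within the thymus, replicate 2 was also lowest for Oasl1 and Oas2, while it was the highest of all 9 libraries for 7 members, Irf7, Oasl2, Dhx58 and Samd9l among them, so it was not low across the list.

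The OAS enzymes sense double-stranded RNA and make the 2′-5′ oligoadenylates that activate RNase L. Oasl2 (chr5:114896936-114912234) was at 546, 2435 and 707 in the thymus, 137, 237 and 467 in the liver and 152, 171 and 87.5 in the spleen. Each thymus value lay above all others, though narrowly, with 546 in thymus replicate 1 against 467 in liver replicate 3, and the ratio of means in spleen against thymus was 0.111 (adjusted p = 0.23). Oasl1, its neighbour, was at 147, 0.0274 and 827 in the thymus, 269.7, 42 and 230.2 in the liver and 0, 197 and 155 in the spleen, with no read in thymus replicate 2 and spleen replicate 1. It had the largest spread of any member within the thymus and within the spleen (SD of log2 values 5.01 and 4.31). Oas2 was at 2664, 117 and 773 in the thymus, 538, 1245 and 515 in the liver and 259, 556 and 367.5 in the spleen. Oas3, the member for long double-stranded RNA, was at 2819, 4332 and 4150 in the thymus, 3178, 4415 and 2859 in the liver and 1155, 3279 and 2067 in the spleen, and its log2 fold change in liver against spleen was 0.79 (SE 0.41, adjusted p = 1). Eif2ak2, the kinase PKR that stops translation on binding double-stranded RNA, was at 1592, 3350 and 1910 in the thymus, 1231, 2307 and 2284 in the liver and 1883, 2389 and 2063 in the spleen, with overlapping ranges in all tissues.

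The 4 sensors of viral nucleic acid did not share 1 order of tissues, and none passed with limma, edgeR or DESeq2. Ddx58 (RIG-I), which detects RNA with a 5′ triphosphate, was at 4597, 3586 and 4978 in the thymus, 4285, 5137 and 4222 in the liver and 6876, 5668 and 5161 in the spleen, and all spleen values lay above all thymus and liver values. Ifih1 (MDA5), which detects long double-stranded RNA, was at 1502, 3490 and 4361 in the thymus, 1829, 2316 and 1733 in the liver and 2612, 2100 and 3527 in the spleen. Dhx58 (LGP2), which modulates both, was at 582, 1514 and 1018 in the thymus, 343, 566 and 509 in the liver and 428, 347 and 666 in the spleen, so that the liver lay below the thymus in every library, and under TMM rescaling the spleen did too. Zbp1, a sensor of Z-form nucleic acid that can start cell death (chr2:173206612-173218923), was at 3677, 3448 and 2583 in the thymus, 7268, 4329 and 4470 in the liver and 5381, 4453 and 7883 in the spleen. Every liver and spleen value of Zbp1 lay above the thymus values, with ratios of means of 1.65 and 1.82, neither past the threshold (adjusted p = 0.431 and 0.333). The separation of Ddx58 from the thymus and that of Zbp1 were both lost under TMM rescaling.

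The GTPases are known mainly as targets of interferon-gamma and act on membranes around intracellular pathogens. None of the 6 lay wholly lower in the liver than in the thymus, but only 5.73% of all genes did, so this count is near the share of all genes. On the deposited scale the transcription factors and the ADP-ribosylation and ubiquitin genes had no such member either. All 6 had a positive log2 fold change in liver against thymus, as did 7975 of all 13309 genes. Their median was 0.49 beside 0.29 for all genes, but under TMM rescaling Gbp3 and Gbp7 were on the other side of 0. None of the 6 passed with limma, edgeR or DESeq2, and 1 was at an unadjusted p under 0.05 with each tool. Irgm1 (chr11:48861968-48871683) was at 1025, 793 and 1574 in the thymus, 3076, 2037 and 1968 in the liver and 1864, 1840 and 2104 in the spleen. Its liver and spleen values lay wholly above the thymus, also under TMM rescaling, with a ratio of means of 2.09 in the liver (adjusted p = 0.346) and 1.71 in the spleen (adjusted p = 0.468). Gbp2 (chr3:142620602-142638008) was at 1120, 2643 and 3018 in the thymus, 4112, 3187 and 3094 in the liver and 1675, 2037 and 3392 in the spleen, and its liver values lay above the thymus until the values were rescaled. Igtp, or Irgm3, was at 3490, 3880 and 6616 in the thymus, 6035, 7042 and 8333 in the liver and 6240, 4078 and 5907 in the spleen. Ifi47, or Irg47, was at 4724, 10758 and 10769 in the thymus, 12046, 10332 and 8491 in the liver and 9946, 10660 and 11840 in the spleen. For Igtp and Ifi47 the ranges of all 3 tissues overlapped.

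Gbp7 was at 8297, 11539 and 9219 in the thymus, 9564, 11279 and 9769 in the liver and 5861, 7376 and 7899 in the spleen, and every spleen value lay below all thymus and liver values. Its log2 fold change in liver against spleen was 0.54 (SE 0.24, adjusted p = 1). Gbp3 was at 660.3, 441 and 1490 in the thymus, 536, 902 and 1470 in the liver and 324, 1036 and 748 in the spleen, without separation of tissues. The mean log2 value over the 6 GTPases was 11.50 ± 0.46 in the thymus, 12.02 ± 0.04 in the liver and 11.65 ± 0.25 in the spleen, so the liver libraries were nearly equal to each other.

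The transcription factors that answer to interferon showed no separation of tissues. Stat2, a part of ISGF3, was at 1392, 1701 and 3285 in the thymus, 3697, 2004 and 3198 in the liver and 1120, 2396 and 2253 in the spleen. Irf9, the DNA-binding part of ISGF3, was at 5472, 4053 and 1875 in the thymus, 935, 2709 and 1769 in the liver and 1971, 2826 and 2630 in the spleen, highest in thymus replicates 1 and 2. Irf7, which amplifies the production of type I interferon, was at 337.5, 1736 and 409 in the thymus, 173, 880.5 and 860.5 in the liver and 437, 732 and 1411 in the spleen. Its values spanned more than 3-fold within each tissue.

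Parp9, Dtx3l and Parp14 lie together on chromosome 16 and act in ADP-ribosylation and ubiquitin transfer that strengthen the interferon response. Parp9 was at 3869, 3471 and 2043 in the thymus, 1960, 1867 and 2090 in the liver and 1227, 1671 and 1749 in the spleen. Dtx3l, the ubiquitin ligase that pairs with it, was at 6237, 6197 and 5527 in the thymus, 8305, 6904 and 4839 in the liver and 3643, 4941 and 5382 in the spleen. Both were wholly lower in the spleen than in the thymus, with ratios of means of 0.495 and 0.778, and neither passed the test (adjusted p = 0.345 and 0.638). The annotated ends of Parp9 and Dtx3l overlap on opposite strands, and whether the counting used strand is not given in the sources used here. Parp14 was at 8662, 9792 and 5974 in the thymus, 5549, 9853 and 7437 in the liver and 4497, 6603 and 8432 in the spleen, with overlapping ranges.

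Of the remaining members, Ifi44, an interferon-induced protein that restrains signalling, was read mainly in the liver. It had values of 38.3, 11.1 and 165 in the liver, from 84 reads, 0 reads in all thymus libraries and 4 reads in the spleen. Against a floor of 3 reads in each thymus library, it was at least 20.2-fold higher in the liver than in the thymus, a bound that covers counting error only and was 7-fold without liver replicate 3. The fit did not pass (adjusted p = 0.198) in liver against thymus nor in liver against spleen (log2 fold change 4.77, SE 1.55, adjusted p = 1). The highest value, 165, was that of liver replicate 3, the shallowest library.

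Xaf1, a promoter of apoptosis, was at 1697, 2266 and 1405 in the thymus, 1443, 1448 and 1279 in the liver and 1085, 1094 and 2040 in the spleen. Ifi35, which pairs with Nmi, was at 578.5, 496 and 429 in the thymus, 791, 503 and 648 in the liver and 90.9, 431 and 613 in the spleen. Ifi27l2a, a small membrane protein, was at 1409, 2041 and 1569 in the thymus, 691, 1727 and 2247 in the liver and 742.5, 1604 and 1180 in the spleen. Rtp4, a transporter-like protein that also acts against flaviviruses, was at 1526, 819 and 975 in the thymus, 1020, 1838 and 1356 in the liver and 1937, 398 and 1057 in the spleen. The ranges of all tissues overlapped in these 4 genes on the deposited scale, and the lowest Ifi35 value was that of spleen replicate 1.

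**Figure D5:**
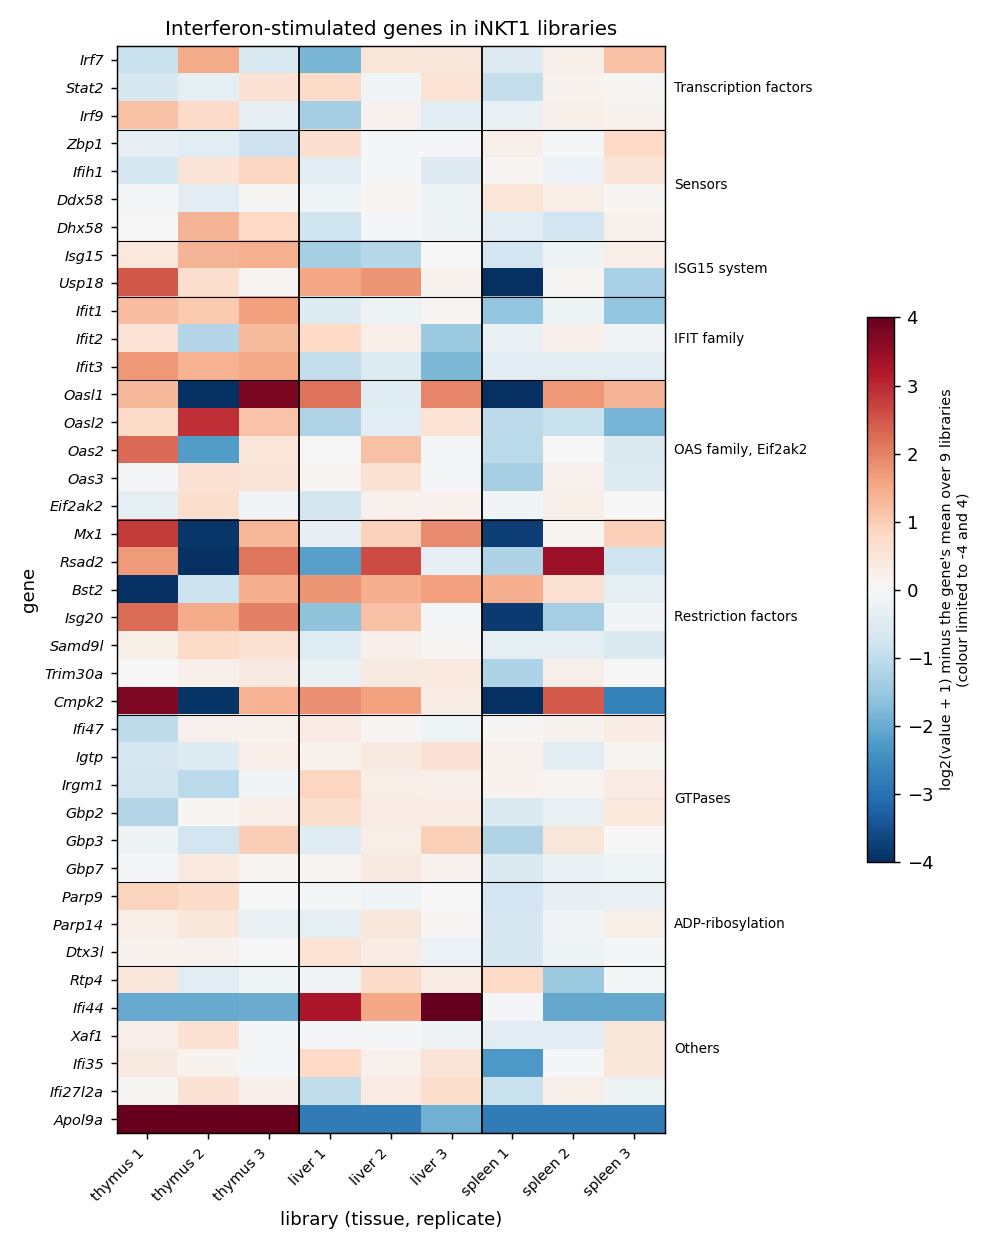
Each member (rows, grouped by role) in each library (columns): log2(value + 1) minus the member's mean over the 9 libraries, on a colour scale in log2 units. The low cells of spleen replicate 1, and those of thymus replicate 2 in Mx1, Rsad2, Cmpk2 and Oasl1, can be read against the high thymus cells of Apol9a, Ifit1 and Ifit3.

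Ordered by means, the thymus was highest for 23 of the 39 members, the liver for 11 and the spleen for 5. The lowest value of a member fell in spleen replicate 1 for 15 of the 39, and in no other library for more than 7. Neither the order of means nor the lowest library was counted over all genes. Whether these counts are particular to the members is thus not known. Spleen replicate 1 was also the library with the highest B cell and myeloid marker values, and the part of those cells in its values was not tested. Without it the median log2 fold change of the members was -0.17 in spleen against thymus and 0.23 in liver against spleen. Within tissues the members varied less than other genes, with a median SD of log2 values of 0.55 in the thymus, 0.42 in the liver and 0.52 in the spleen, beside 1.34, 0.76 and 0.77 over all genes tested. Those medians also reflect level, since low genes vary more and the members lie well above the mean of all genes. Members with and without an ISRE match had median log2 fold changes of 0.06 and -0.29 in liver against thymus, -0.12 and -0.50 in spleen against thymus and 0.41 and 0.51 in liver against spleen. These medians are a description of 17 and 13 members.

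The receptors and signalling genes that stand upstream were taken as a list of 26, of which 24 were in the table and tested. With limma, in liver against thymus 1 of the 24 fell and none rose, where 0.323% of all genes passed. In spleen against thymus 1 rose and 1 fell, where 0.398% of all genes passed. In liver against spleen none passed with limma, edgeR or DESeq2 (2 at an unadjusted p under 0.05 with each of the 3 tools), where 0.015% of all genes passed with limma. At an unadjusted p under 0.05 with limma, 4 of the 24 were past in each comparison with the thymus. Of all genes, 11.6%, 11.7% and 3.03% were past that level in liver against thymus, spleen against thymus and liver against spleen. The gene that fell was Ptpn6, the phosphatase SHP-1 that dampens signalling by receptors and Jak kinases, at 16256, 12080 and 10409 in the thymus, 4229, 3444 and 3829 in the liver and 3417, 1692 and 2319 in the spleen. Its log2 fold change was -1.73 (SE 0.32, adjusted p = 0.0292) in liver against thymus and -2.42 (SE 0.32, adjusted p = 0.00331) in spleen against thymus, and the spleen call held under all 21 alternatives run and the liver call under 13 of 21. The gene that rose was Jak2, a kinase of the interferon-gamma receptor, at 3893, 4466 and 4495 in the thymus, 5850, 7570 and 7571 in the liver and 9420, 16739 and 14221 in the spleen. It was higher by 1.61 (SE 0.27, adjusted p = 0.0151) in spleen against thymus, a call that held under 17 of 21 alternatives.

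The other upstream genes fixed for description did not pass. Ifnar1 was at 1776, 7674 and 3592 in the thymus, 3375, 3315 and 2865 in the liver and 1601, 3037 and 2177 in the spleen, and Ifnar2 at 2527, 2559 and 1786 in the thymus, 1070, 2061 and 2096 in the liver and 993, 1875 and 2167 in the spleen. Ifngr1, a chain of the interferon-gamma receptor, was at 4363, 7962 and 10129 in the thymus, 13973, 8621 and 7051 in the liver and 4878, 3145 and 7038 in the spleen. Values for Jak1, the kinase common to both receptors, were 25575, 15059 and 27571 in the thymus, 23658, 23131 and 19393 in the liver and 15544, 18848 and 17413 in the spleen. The receptor chains and Jak1 were thus read in all 9 libraries, and the liver and spleen ranges overlapped for Ifnar1 and Ifnar2. For Jak1 each liver value lay above the spleen values, and for Ifngr1 narrowly so, at 7051 against 7038. Tyk2, its partner at the type I receptor, was at 3619, 710 and 2253 in the thymus, 2101, 1299 and 1612 in the liver and 1582, 2080 and 2472 in the spleen. Irf1, an early target of interferon-gamma, was at 2035, 5216 and 2336 in the thymus, 1434, 3187 and 2804 in the liver and 2067, 2058 and 3607 in the spleen. Socs1, an inhibitor that interferon induces, was at 5.63, 139.9 and 202 in the thymus, 233, 312 and 79.8 in the liver and 226, 212 and 402 in the spleen, and was lowest in thymus replicate 1. Ifng itself was at 2696, 24.3 and 1082 in the thymus, 1458, 1282 and 2271 in the liver and 3029, 2265 and 1328 in the spleen, with only 24.3 in thymus replicate 2. Ifngr2 was not analysed here.

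A further 46 interferon-induced genes outside the 39 were listed, and 42 of them were in the table and tested. None passed with limma in any of the 3 comparisons, against 5, 4 and 1 at an unadjusted p under 0.05 in liver against thymus, spleen against thymus and liver against spleen, a level that 11.6%, 11.7% and 3.03% of all genes passed. None passed with edgeR either (5, 3 and 3 at an unadjusted p under 0.05), and DESeq2 called Ifit3b and Ifi204 in liver against thymus, Slfn1 in spleen against thymus and none in liver against spleen. These 2 and 1 of 42 stand beside the 3.42% and 3.85% of all genes that DESeq2 called. Their median log2 fold changes were -0.29, -0.07 and 0.06, where those of all genes were 0.29, 0.33 and -0.02. Wholly above the thymus were 4 genes in the liver and 1 in the spleen, and wholly below it were 4 in the liver and 5 in the spleen. Of all genes 9.61% and 9.29% lay above and 5.73% and 6.03% below.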

How the data were processed

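RNA-seq of iNKT1 cells was analysed for 9 libraries, 3 each of thymus, liver and spleen, grouped by their labels. The deposited table holds the authors' normalised signal, a read count scaled per library, for 14004 genes; how it was scaled is not given in the sources used here. Trimmomatic 0.33, TopHat2 2.1.0, HTSeq 0.6.1, edgeR and mm10 are named, without role or order, per the submitters' processing notes. The labels' protocols name an ultralow-input kit and a NextSeq500 run. Symbols matched 13359 of the 14004 identifiers. Coordinates are from GENCODE M21 (GRCm38), promoters from RefSeq.

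The planned test for normalised values was used: limma-trend (limma 3.58.1, R 4.3.3) on log2(value + 1), keeping genes that reached a value of 1 in 3 or more libraries, a term per tissue, no block. Fold changes on this scale understate low genes. Reads were recovered by dividing values by the library's step: of 15737 values of 1 to 20 reads, 93.4% lay within 0.1 read of a whole number (72.8% in liver replicate 3). They served edgeR 4.0.16 and DESeq2 1.42.0 as alternatives, beside another pseudocount, other filters, TMM rescaling, array weights, a replicate block, fewer libraries and leaving out each library; 2 alternatives concerning the libraries numbered 2 were added after seeing Xist. The analysis was tested on simulated data.

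Members and lists were chosen with earlier results of these data known. A fold change with its error was given for members past the threshold and the 4 with the smallest p in each comparison; the separation of values was described for all. The values of 1 upstream gene are not reported here.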

Additional observations from a re-analysis of the deposited data

How the results depend on the processing

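The counts of members past the threshold depended on the setting, and the fold changes of the members named with a test did not reverse under any alternative run. In liver against thymus the count of 1 became 0 with a mean value of at least 100 as filter, array weights, edgeR, only the 6 libraries compared, a term for the libraries numbered 2 or the libraries numbered 1 and 3 only, and 4 with DESeq2 (Ifit1, Isg15, Apol9a, Ifit3), which called 455 of all 13309 genes against 43 with limma. In spleen against thymus the count of 2 became 1 without a filter or with the mean filter, 0 with array weights, edgeR, only the 6 libraries compared or the libraries numbered 1 and 3 only, 3 under TMM rescaling (Ifit1, Samd9l, Apol9a; 89 of all genes), and 6 with DESeq2 (Oasl2, Ifit1, Isg20, Samd9l, Apol9a, Ifit3), which called 512 of all genes against 53 with limma. Leaving out each of the 9 libraries in turn gave 0 to 0 members in every comparison, and liver against spleen stayed at 0 under every alternative. The cause was not tested, beyond the fewer libraries or genes that some settings hold. With the replicate block the counts were 0, 1 and 0. No label says that the replicate numbers pair the libraries, so the main fit had no block, and a pairing was not excluded. Deviations of the 9 same-numbered pairs correlated at -0.001 to 0.089 and those of the other 18 pairs at -0.087 to 0.048. The same-numbered pairs thus ran somewhat higher, though all correlations were weak. In addition, 4 of 9 libraries matched their own number best in each other tissue, and the libraries numbered 2 shared high Xist values. With 1 library left out, the difference of the members' mean log2 value ran from -0.35 (without thymus replicate 2) to 0.06 (without thymus replicate 3) in liver against thymus, from -0.98 to -0.44 (without spleen replicate 1) in spleen against thymus and from 0.30 (without spleen replicate 1) to 0.83 in liver against spleen. Under TMM rescaling it was -0.41, -1.05 and 0.64, and with the libraries numbered 1 and 3 only -0.43, -1.18 and 0.75. In liver replicate 3, 1 read is worth 6.04, so values near that in this library are at the limit of its depth.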

Other observations

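Sp100, a nuclear body gene among the further interferon-induced genes, had a value of 143471 in spleen replicate 1 and 12526 to 41671 in the other 8 libraries. It was picked out after its values were seen. The same library held the lowest value of 15 of the 39 members, a count that was not made over all genes.

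Socs3, an inhibitor of Jak signalling, was at 0.0212, 0.0273 and 5.07 in the thymus, 197, 233 and 569 in the liver and 219, 406 and 272 in the spleen. It did not pass with limma in liver against thymus (adjusted p = 0.063) or spleen against thymus (adjusted p = 0.0584), and DESeq2 on the recovered reads called it in both. Ifit1bl1, a neighbour of Ifit1, was at 4814, 2006 and 3493 in the thymus, 8098, 7739 and 7001 in the liver and 5071, 7988 and 6235 in the spleen, so every liver and spleen value lay above the thymus values on the deposited scale, and under TMM rescaling those of the liver alone did. Both genes were picked out after their values were seen.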
